A study of Drosophila melanogaster with 3 samples.

Results

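The proteasome subunit genes of Drosophila melanogaster were examined in a map of fkh binding in whole prepupae, the stage at which the feeding larva has turned into an immobile animal at the start of metamorphosis. They were chosen by symbol, as the protein-coding genes of the dm6 build whose symbols start with Prosalpha, Prosbeta, Rpt or Rpn. This gave 48 genes of 13945 protein-coding genes on the chromosome arms that the peak lists cover. Binding was measured by chromatin immunoprecipitation and sequencing (ChIP-seq) in a transgenic line in which the forkhead transcription factor fkh carries green fluorescent protein (GFP) at its C-terminal end, with an antibody to GFP. The series has 1 group of 3 biological replicates of this line, each of pooled males and females, and the 3 share 1 control. Because whole animals were used, a peak cannot be placed in a tissue, and the lists hold no expression values against which the animals or the activity of a gene could be checked. The age entry of the labels was not used.

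The proteasome is the protease that breaks down most ubiquitin-tagged proteins in eukaryotic cells. Its core particle is a barrel of alpha rings, which gate the entrance, around beta rings, which hold the proteolytic sites. A cap binds the end of the barrel: its base unfolds the substrate with a ring of ATPases (the Rpt subunits), and its lid removes the ubiquitin chain. In flies many subunits have a second copy in the genome, and many of these copies are known for expression in the testis. fkh is known for its roles in the salivary glands and the gut, and the salivary glands are among the tissues that are destroyed by programmed cell death during metamorphosis.

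Of the 48 genes, 7 encode the alpha ring, 7 the beta ring, 10 the base and 8 the lid, which makes 14 core and 18 cap genes and 32 ubiquitous subunits in all. The other 16 have symbols that end in T or R, with or without a number after the letter, and are called testis-type paralogues here. A peak was assigned to a gene when its summit in the authors' optimal list, the list kept after their reproducibility step, lay within 1000 bp of any of the gene's annotated transcription start sites (TSSs). By this rule 12 of the 48 genes had a peak.

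Peaks of the alpha ring, the beta ring, the base and the lid are shown first as sequence, each for the strongest gene whose chromosome allows printing. For the lid this is Rpn11, whose peak was weaker than 2 other lid peaks. The stretches are read from the release 6 assembly on the strand of the proteasome gene, 5′ to 3′, and the capital marks the base of the summit. They are Prosalpha6 (chr2L:10221204-10221304, plus strand), Prosbeta3 (chr3R:9006335-9006435, minus strand), Rpt2 (chr3R:23931529-23931608, minus strand, shortened so that little of its 5′ UTR is shown) and Rpn11 (chr2L:5059935-5060035, minus strand).
Prosalpha6: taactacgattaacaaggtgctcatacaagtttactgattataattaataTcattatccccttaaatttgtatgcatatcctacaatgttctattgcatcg
Prosbeta3: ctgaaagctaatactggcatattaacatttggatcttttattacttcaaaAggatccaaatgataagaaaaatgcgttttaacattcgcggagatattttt
Rpt2: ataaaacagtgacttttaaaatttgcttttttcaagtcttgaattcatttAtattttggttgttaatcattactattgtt
Rpn11: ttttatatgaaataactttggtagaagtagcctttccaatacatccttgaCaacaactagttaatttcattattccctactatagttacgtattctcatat
All 4 stretches are rich in A and T. None of the 4 holds the forkhead word TRTTTRY, the core of the sites that forkhead proteins are known to bind. In it R stands for A or G and Y for C or T. The absence of the word depends on which genes could be printed. The 2 stronger lid peaks, which are not shown, are the only 2 of the 12 with the word within 50 bp of the summit.

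A second word, the DNA replication-related element (DRE, letters TATCGATA), is shown for 4 genes because it was found in many proteasome promoters. It is known in flies as a promoter element of growth and housekeeping genes, bound by the factor DREF. The capitals mark the DRE, which starts 16 bp before the TSS of Prosalpha6 (chr2L:10221315-10221362), 10 bp before that of Prosbeta2 (chr3L:14999921-14999968), 44 bp before that of Prosbeta6 (chr3L:16610435-16610482) and 46 bp before that of Rpt5 (chr3R:23752810-23752857). Prosbeta6 lies on the minus strand and the other 3 genes on the plus strand.
Prosalpha6: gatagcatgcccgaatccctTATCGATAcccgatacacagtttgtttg
Prosbeta2: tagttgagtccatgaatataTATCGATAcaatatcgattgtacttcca
Prosbeta6: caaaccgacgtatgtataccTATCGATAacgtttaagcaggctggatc
Rpt5: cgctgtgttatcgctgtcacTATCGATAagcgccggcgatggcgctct
Prosalpha6 and Prosbeta2 had an optimal peak, whereas Prosbeta6 and Rpt5 did not.

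The share of proteasome genes with a peak was set beside that of all genes. A peak was found at 12 of the 48 genes (25.0%, exact binomial 95% interval 13.6 to 39.6%), beside 4345 of 13945 protein-coding genes, which is 31.2%. The ubiquitous subunits stood at 12 of 32 (37.5%, 21.1 to 56.3%) and the testis-type paralogues at 0 of 16, which allows a share of up to 20.6%. The core particle had a peak at 5 of 14 genes (35.7%, 12.8 to 64.9%) and the cap at 7 of 18 (38.9%, 17.3 to 64.3%). The shares of core and cap are both close to the background, and their intervals overlap over most of their width. Which of them was higher depended on the rule. With a window of 250 bp it was the core (35.7%), beside 27.8% for the cap and 21.8% of all protein-coding genes. These intervals cover counting error only, and genes that share a peak with a neighbour are not independent.

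**Figure D1:**
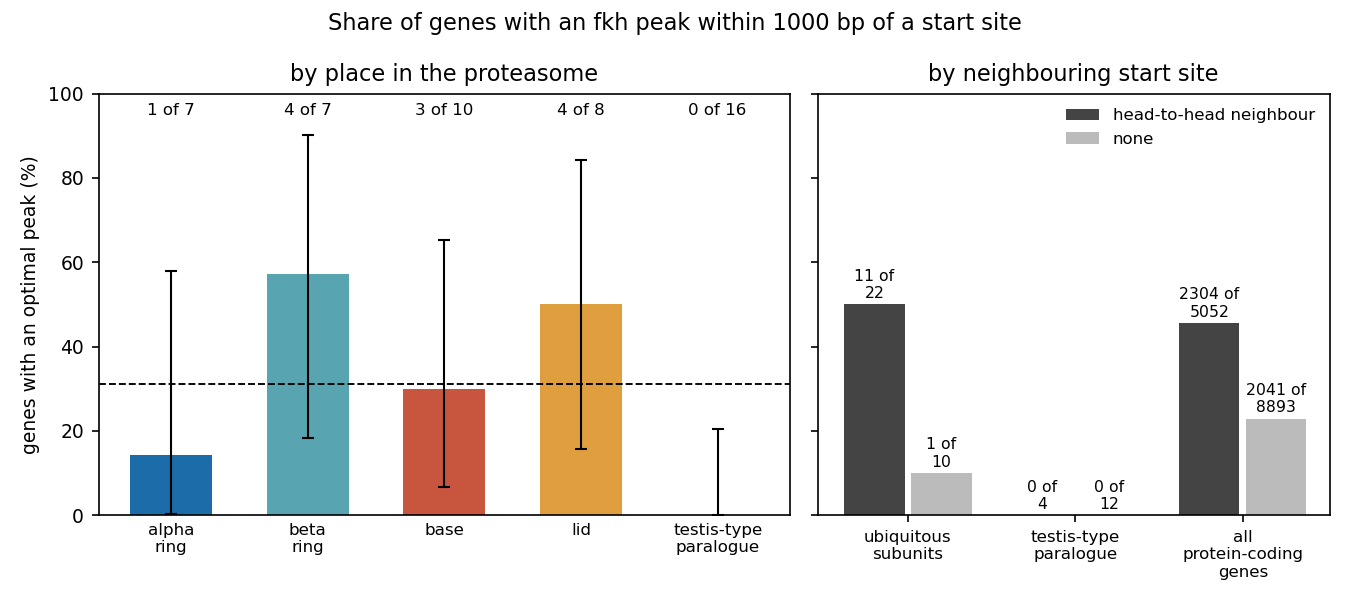
The left panel plots the percentage of genes with an optimal peak within 1000 bp of a TSS for the parts of the proteasome and the testis-type paralogues, with exact 95% intervals as bars and the share of all protein-coding genes (31.2%) as a dashed line. The right panel splits the ubiquitous subunits, the paralogues and all protein-coding genes by whether an opposite-strand TSS lies within 1000 bp upstream. The beta ring (4 of 7) is highest and the paralogues (0 of 16) lowest on the left, and ubiquitous subunits with a head-to-head neighbour hold 11 of the 12 peaks on the right.

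Within the core particle, 4 of 7 beta ring genes had a peak (57.1%, exact interval 18.4 to 90.1%). Of the 7 alpha ring genes 1 had one (14.3%, 0.361 to 57.9%). The 2 intervals overlap, and both include the 31.2% of all protein-coding genes. The 4 beta ring genes were Prosbeta1, Prosbeta2 and Prosbeta5, which encode the subunits with the proteolytic sites, and Prosbeta3, which has no such site. In 3 of these 4 the strongest summit lay nearer to the TSS of another gene. The signal in the lists is the authors' value for each peak and was used only to rank peaks within a list. Prosbeta3 was the strongest of the core, at a signal of 623.5 and rank 1385 of the 9531 optimal peaks (chr3R:9006127-9006536). Its replicate regions ranked 2613, 700 and 1762 in replicates 1, 2 and 3, a mean rank of 1692 ± 958 (SD, n = 3). All 3 ranks lay in the stronger part of the 30000 regions listed per replicate, with replicate 2 the highest.

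Prosbeta1, which encodes the subunit of caspase-like activity, had a signal of 418.9 at rank 2859 (chr2R:16014746-16014995). Its replicate ranks were 4894, 1936 and 3109, a mean of 3313 ± 1490 (SD, n = 3). Prosbeta5, which encodes the subunit of chymotrypsin-like activity, had a signal of 336.1 at rank 3938 (chr2R:10819639-10820098), with replicate ranks of 4724, 3894 and 7491 and a mean of 5370 ± 1883 (SD, n = 3). For both genes replicate 2 ranked the region highest, and every replicate had it among its 9531 strongest regions, the number that the optimal list holds.

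The other 2 core peaks were weak. Prosalpha6, of the alpha ring, had a signal of 189.1 at rank 8076 (chr2L:10221223-10221366), and the regions whose summits lay nearest to that peak's summit ranked 10312, 5530 and 20497 in replicates 1, 2 and 3. The strongest regions within the window in the 3 replicates, at ranks 8534, 4157 and 17963, had their summits 756, 308 and 733 bp upstream of the TSS and thus not at the optimal summit, 97 bp upstream. Prosbeta2, which encodes the subunit of trypsin-like activity, had a signal of 170.9 at rank 8952 (chr3L:14999600-15000059). Its replicate ranks of 15125, 6115 and 10262 gave a mean of 10501 ± 4510 (SD, n = 3), so 1 of the 3 replicates had it among its 9531 strongest regions. The weakest peak of the whole optimal list had a signal of 160.0, close below both.

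The cap held the 4 strongest peaks of the whole set. Rpn6, a lid subunit known in yeast to clamp the cap onto the core, was the highest with a signal of 1167 at rank 296 (chr2R:14752198-14752713). It ranked 413, 195 and 424 in replicates 1, 2 and 3, a mean of 344 ± 129 (SD, n = 3), and the replicate summits lay 0, 0 and 13 bp from the optimal summit. Every replicate thus placed the region near the top of its list and at nearly the same base. The peak lay in an intron of the gene, 160 bp upstream of the nearer of its 2 TSSs.

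Rpt2, an ATPase of the base known in yeast to help open the gate of the core, had a signal of 864.5 at rank 652 (chr3R:23931340-23931758). It ranked 1085, 512 and 549, a mean of 715 ± 321 (SD, n = 3), and its summit fell on the annotated TSS itself, at a distance of 0 bp. Rpn13, a ubiquitin receptor of the base, had 2 summits in 1 interval (chr2R:13960470-13961151), with signals of 717.6 and 297.2 at 265 and 558 bp upstream. Its stronger summit ranked 1020 in the optimal list and 858, 1065 and 1988 in the replicates, a mean of 1304 ± 602 (SD, n = 3). The replicate summits of Rpt2 and Rpn13 all lay within 12 bp of the optimal summit.

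Rpn8, the partner of the deubiquitinase Rpn11 in the lid, had 3 summits near its TSSs, with signals of 668.5, 279.1 and 207.9. The strongest (chr2R:24402174-24403060) was at rank 1195 and lay 496 bp upstream of the nearest Rpn8 TSS, the largest distance of any gene's strongest summit. Its replicate ranks were 1291, 1240 and 928, a mean of 1153 ± 197 (SD, n = 3), so all 3 replicates placed it alike. The replicate summits stood 38, 113 and 3 bp from the optimal one.

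The other 3 cap peaks were in the weaker part of the list. Rpn2, a scaffold of the base, had a signal of 205.7 at rank 7408 (chr3R:29153122-29153581) and replicate ranks of 12262, 7693 and 5839. Rpn11, the deubiquitinase that removes the ubiquitin chain, had a signal of 168.4 at rank 9099 (chr2L:5059755-5060214) and replicate ranks of 9150, 11284 and 8905. Rpn9, a structural subunit of the lid, had a signal of 162.2 at rank 9418 and replicate ranks of 12753, 8145 and 7388. Rpn2 and Rpn11 were each among the 9531 strongest regions in 2 of the 3 replicates. For Rpn9 the region of replicate 3 lay elsewhere, 120 bp upstream of the TSS, and the region nearest to the optimal summit ranked 22616 there, so the peak itself was among the 9531 strongest in 1 replicate. For Rpn11 the summits of replicates 2 and 3 stood 148 and 119 bp from the optimal one.

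**Figure D2:**
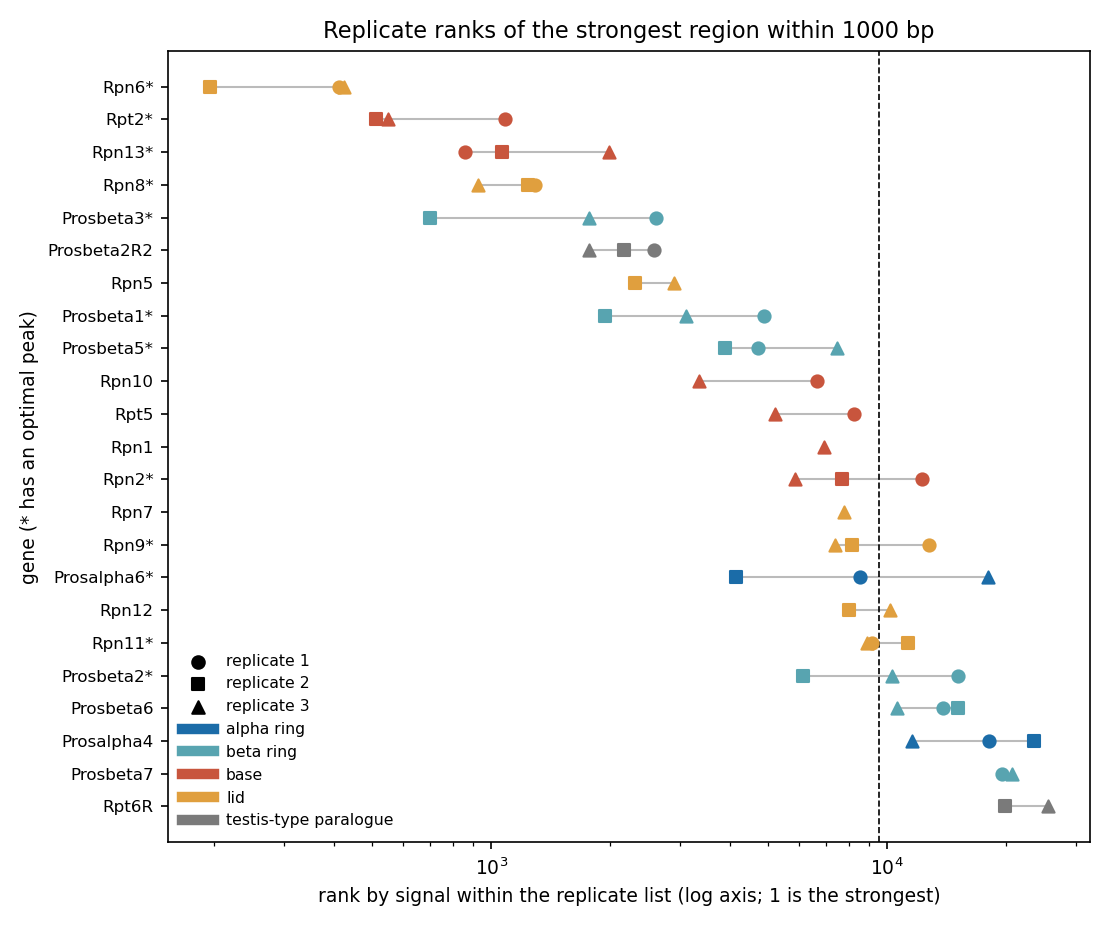
The horizontal axis gives, on a log scale, the rank by signal of the strongest region within 1000 bp of a TSS in replicates 1 (circles), 2 (squares) and 3 (triangles), for the 23 proteasome genes with a region in any replicate, and colours give the part of the proteasome. The dashed line marks rank 9531, and an asterisk marks genes with an optimal peak. Rpn6, Rpt2, Rpn13, Rpn8, Prosbeta3, Prosbeta1 and Prosbeta5 lie left of the line in all 3 replicates, and so does Prosbeta2R2, which has no optimal peak.

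Over the 12 genes the median signal was 377.5, beside 395.1 over all genes with a peak, with a median of 336.1 for the 5 core genes and 668.5 for the 7 cap genes. In replicates 1, 2 and 3 the median rank of the 12 genes was 4809, 2915 and 4474, and that of all genes with a peak was 3551.5, 3019 and 3109.5. The cap genes had median ranks of 1291, 1240 and 1988 and the core genes of 4894, 3894 and 7491, so the cap ranked higher by median in every replicate. This did not hold for both parts of the cap. The 3 base genes had median ranks of 1085, 1065 and 1988 and the 4 lid genes of 5220.5, 4692.5 and 4158, so the lid ranked lower than the core in replicates 1 and 2. The 7 cap genes split into 4 strong and 3 weak peaks, and their lowest, Rpn9, was below all 5 core genes. The difference between core and cap was not tested, since the genes are not replicates and the 3 replicates are of 1 group.

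**Figure D3:**
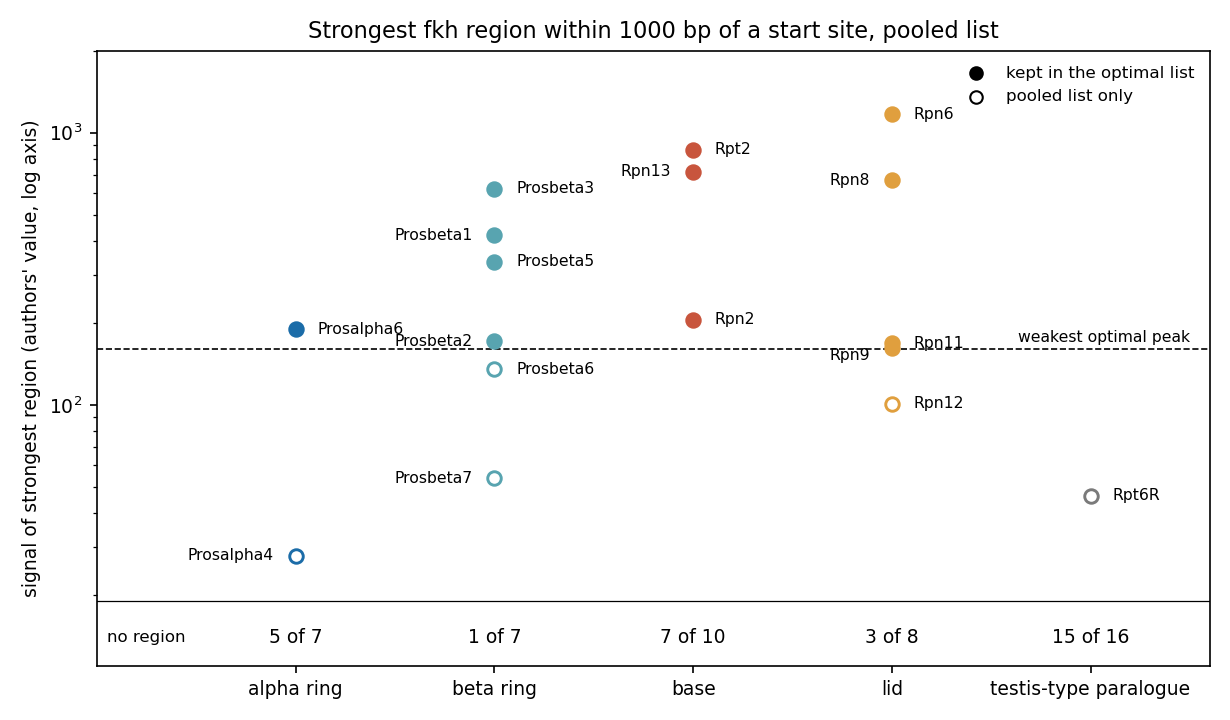
The vertical axis gives, on a log scale, the authors' signal of the strongest region in the pooled list within 1000 bp of a TSS, for each proteasome gene with one. Filled points are regions kept in the optimal list, open points are regions of the pooled list only, the dashed line is the weakest optimal peak (160.0), and the strip at the bottom counts the genes with no region. The 12 filled points run from 162.2 (Rpn9) to 1167 (Rpn6), and 15 of the 16 testis-type paralogues have no region.

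The genes with no optimal peak were followed into the pooled list, called on the 3 replicates together and including background regions. In it 17 of the 48 genes had a region (35.4%), beside 43.4% of all protein-coding genes. The 5 added genes were Prosbeta6 with a signal of 134.9, Rpn12 with 100.8, Prosbeta7 with 53.8, Prosalpha4 with 27.9 and the paralogue Rpt6R with 46.4. Prosbeta6 and Prosbeta7 are beta ring subunits without a proteolytic site, Prosalpha4 is of the alpha ring, Rpn12 is of the lid, and Rpt6R is a copy of the ATPase Rpt6. Prosbeta6 was nearest to the limit, at rank 11106 of the pooled list, and ranked 13826, 15124 and 10578 in the replicates. Rpn12 ranked 8008 in replicate 2 and 10165 in replicate 3 and had no region in replicate 1.

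For 25 genes none of the 5 lists had a summit within 1000 bp. These were 5 of the 7 alpha ring genes (Prosalpha1, Prosalpha2, Prosalpha3, Prosalpha5 and Prosalpha7), Prosbeta4, the ATPase genes Rpt1, Rpt3, Rpt4 and Rpt6, the lid gene Rpn3 and 14 paralogues. The limit of 1000 bp left out few peaks of ubiquitous genes. The nearest optimal summits beyond it lay 1409 bp from a TSS of Rpt1, with a signal of 1150, 1434 bp from Rpn12, with 543.4, and 1994 bp from Prosbeta6, with 263.1.

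None of the 16 testis-type paralogues had an optimal summit within 1000 bp of a TSS. The nearest one lay between 4003 bp (Prosbeta2R2) and 124985 bp (Prosbeta5R2) from their TSSs. Among the ubiquitous genes without a peak this distance ran from 1409 bp (Rpt1) to 28297 bp (Rpn5), so the 2 ranges overlap. The 14 with no region in any list were Prosalpha1R, Prosalpha3T, Prosalpha4T1, Prosalpha4T2, Prosalpha6T, Prosbeta2R1, Prosbeta4R1, Prosbeta4R2, Prosbeta5R1, Prosbeta5R2, Rpn12R, Rpn13R, Rpt3R and Rpt4R. Rpt6R, the only one with a pooled region, ranked 19872 in replicate 2 and 25478 in replicate 3 and had no region in replicate 1. Both ranks are in the weaker part of lists that include background.

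Prosbeta2R2, a copy of Prosbeta2, was the only paralogue with strong regions in the replicates. It had a region at ranks 2572, 2167 and 1764 in replicates 1, 2 and 3, a mean of 2168 ± 404 (SD, n = 3), with summits 115, 139 and 109 bp upstream of its TSS. These ranks were close to those of Prosbeta3 in replicates 1 and 3, and above those of Prosbeta1 in 2 of the 3 replicates. The region overlapped no region of the pooled list and so could not enter the optimal list. Its TSS is 129 bp from that of the divergent gene CG1116, so the summits lay close to the start of CG1116 and farther from that of Prosbeta2R2.

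Replicate regions without a pooled one were also found at 5 ubiquitous genes, but in only 1 or 2 replicates each. The lid gene Rpn5 ranked 2314 in replicate 2 and 2903 in replicate 3, with no region in replicate 1. The ubiquitin receptor gene Rpn10 ranked 6639 in replicate 1 and 3353 in replicate 3, and the ATPase gene Rpt5 ranked 8271 and 5216 in the same replicates, both with no region in replicate 2. The scaffold gene Rpn1 and the lid gene Rpn7 had a region in replicate 3 alone, at ranks 6917 and 7774. With Prosbeta2R2 these are 6 of 48 genes (12.5%) that were within the 9531 strongest regions of at least 1 replicate and had no pooled summit, beside 6.36% of all protein-coding genes. In at least 2 replicates the same held for 4 of 48 genes (8.33%), beside 2.27%. Over all genes and places, 2.86% of the 9531 strongest regions of replicate 1, 4.62% of replicate 2 and 7.85% of replicate 3 overlapped no pooled region. Why strong replicate regions had no pooled counterpart was not tested.

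The genes were also counted in each replicate on its own. Among the 9531 strongest regions the cap had 7, 8 and 12 of its 18 genes in replicates 1, 2 and 3, the core 4, 5 and 3 of 14 and the paralogues 1 of 16 in each. The background shares of all protein-coding genes in the 3 replicates were 31.1%, 33.2% and 35.6%. In at least 2 replicates 15 of the 48 genes had such a region (31.2%), beside 32.8% of all protein-coding genes. For the cap this count was 10 of 18 (55.6%) and for the core 4 of 14 (28.6%). The rule of at least 2 replicates was chosen after the data were seen, and the highest cap count is that of replicate 3, the only replicate in which Rpn1 and Rpn7 had a region.

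Most of the peaks were at proteasome genes with a divergent neighbour, though not every summit lay between the start sites. The summit of Rpt2 lay on its own TSS, and that of Prosbeta5 lay past the start of dgo. A head-to-head neighbour, a protein-coding gene on the opposite strand whose TSS lies within 1000 bp upstream, was present at 22 of the 32 ubiquitous genes (68.8%), beside 36.2% of all protein-coding genes and 4 of the 16 paralogues. Of the 22 such ubiquitous genes 11 had a peak (50%), and of the other 10 only Rpn11 had one. Over all protein-coding genes the share with a peak was 45.6% with a head-to-head neighbour and 23.0% without. Set beside genes of the same arrangement, the ubiquitous subunits were thus near the background in the first class. The second class holds only 10 genes, too few to place its share (1 of 10) above or below the background. None of the 4 paralogues with such a neighbour and none of the 12 without had a peak.

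In 9 of the 12 genes with a peak (75.0%) the strongest summit lay nearer to the TSS of another gene than to any TSS of the proteasome gene, beside 26.3% of all genes with a peak. A peak in such a place cannot be given to either gene from these data. With each peak given only to the gene of its nearest TSS, 4 of the 48 genes had one (8.33%), beside 24.6% of all protein-coding genes. In 3 genes the strongest summit lay nearest to the gene's own TSS. These were Prosbeta2, 121 bp from its own TSS and 164 bp from that of mRpL39, Rpt2, 81 bp from that of CG13599, and Rpn11. Rpn11 has no head-to-head neighbour, and its summit lay 195 bp upstream. Rpn8 was counted through its weakest summit, with a signal of 207.9 and 291 bp upstream, and not through its strongest. The neighbours had varied roles. The peak of Rpn6 lay 90 bp from ave, and that of Rpn13 lay 6 bp from CtsL1, which encodes a lysosomal cathepsin.

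The peak of Rpn8 lay 125 bp from Slik, a kinase gene, and that of Prosbeta3 lay 71 bp from Iru, which encodes a ubiquitin ligase. The peak of Prosbeta1 lay 45 bp from Rrp42, a subunit gene of the RNA exosome, and that of Prosbeta5 lay 15 bp from dgo, a planar polarity gene, in its 5′ UTR. The peak of Rpn2 lay 86 bp from Slbp, the binding protein of histone mRNA, and that of Prosalpha6 lay 38 bp from Npc1a, which acts in cholesterol transport. The peak of Rpn9 lay 208 bp downstream of its TSS. CtsL1 and Iru, like the proteasome, act in protein breakdown, and Slik, Rrp42, dgo, Slbp and Npc1a are known for other roles.

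**Figure D4:**
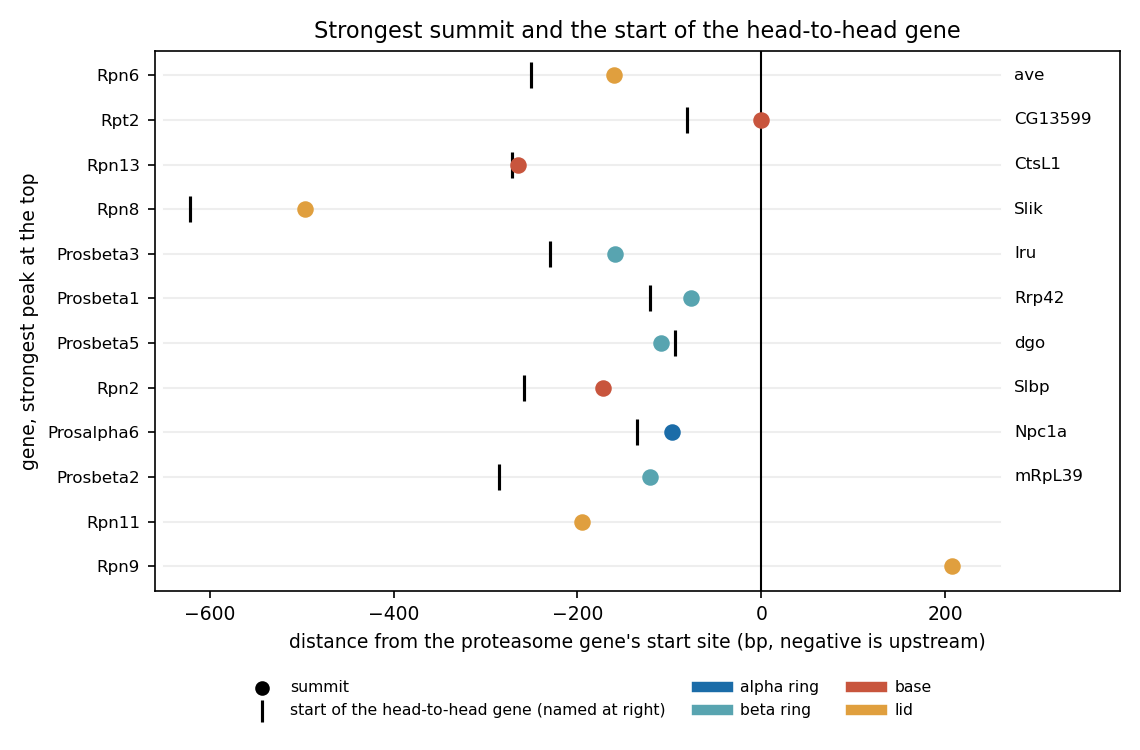
The horizontal axis gives the distance in bp from the nearest TSS of the proteasome gene (0, vertical line), negative upstream, for the 12 genes with an optimal peak in order of signal. Points are the strongest summits, ticks are the start of the head-to-head gene that lies nearest to the summit, and that gene is named at the right where it is reported. Of the 12 summits, 10 lie upstream, that of Rpt2 lies at 0 and that of Rpn9 lies 208 bp downstream.

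The sequence around the summits was searched for words on both strands. The forkhead word TRTTTRY was found within 50 bp of the summit in 2 of the 12 genes, Rpn6 and Rpn8 (16.7%, exact interval 2.09 to 48.4%), beside 52.4% of the 4885 optimal summits within 1000 bp of a protein-coding TSS. Within 100 bp it was found in 6 of 12 (50%), beside 73.1%. The 2 genes with the word near the summit were lid genes with strong peaks, while Rpt2 and Rpn13, with peaks of like strength, had none within 50 bp. A word found or missing in such a window is a description of these letters alone.

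The promoters, from 250 bp before to 50 bp after the outermost TSS, were searched in the same way whether or not the gene had a peak. The DRE was found in 12 of the 32 ubiquitous promoters (37.5%, exact interval 21.1 to 56.3%), beside 9.36% of all protein-coding promoters and 0 of the 16 paralogues. It was in 6 of 14 core and 6 of 18 cap promoters. By peak, it was in 5 of the 12 ubiquitous genes with a peak (41.7%) and in 7 of the 20 without (35.0%), while over all protein-coding genes it was in 13.1% with a peak and 7.65% without. The DRE was thus spread over both classes of proteasome gene. Near the summits it was found within 50 bp in 1 of the 12 genes (8.33%), Prosbeta1, 42 bp away, beside 3.15% of the 4885 optimal summits within 1000 bp of a protein-coding TSS. Within 100 bp it was found in 3 of 12 (25%), beside 5.12%.

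The forkhead word, in contrast, was found in the promoters of 22 of 32 ubiquitous genes (68.8%) and 14 of 16 paralogues (87.5%), beside 62.9% of all protein-coding genes. By peak, it was in 10 of the 12 ubiquitous genes with a peak (83.3%) and in 12 of the 20 without (60%). Over all protein-coding genes it was in 70.4% with a peak and 59.5% without. The paralogues thus held this short word often and had no optimal peak. The word TGACNNNGC, which the activator cnc binds with its partner maf-S, was in 5 of 32 ubiquitous promoters (15.6%), beside 8.63% of all. The word GGTCACACT, bound by the promoter factor M1BP, was in 5 of 32 (15.6%) and in no paralogue, beside 6.05%. The word GAGAG, bound by the GAGA factor, was in 3 of 32 (9.38%), beside 29.7% of all, and the E-box CACGTG was in none, beside 4.20%.

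**Figure D5:**
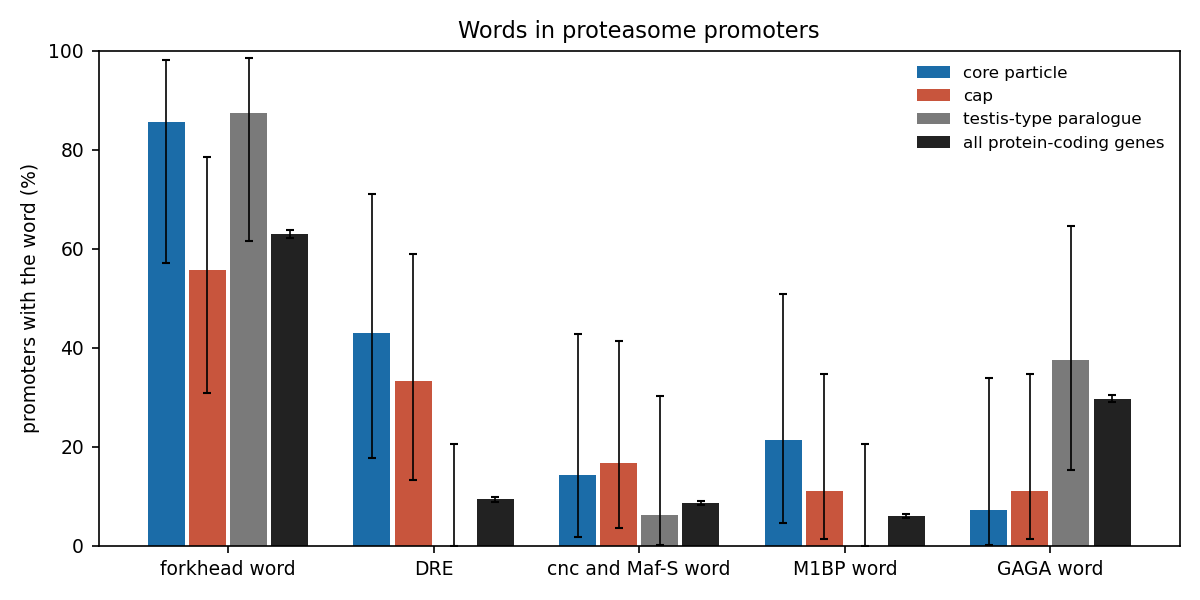
Bars give the percentage of promoters (250 bp before to 50 bp after the TSS) that hold each word, for core, cap, testis-type paralogues and all protein-coding genes, with exact 95% intervals. The DRE is in 42.9% of core and 33.3% of cap promoters, in no paralogue and in 9.36% of all promoters.

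Other genes of the pathway were taken from a list of assembly factors, regulators, ubiquitin genes and delivery factors. Of the 23 that matched an annotated gene, 11 had an optimal peak (47.8%, exact interval 26.8 to 69.4%), an interval that includes the 31.2% of all protein-coding genes. The strongest was Keap1, which encodes the inhibitor of cnc, with a signal of 1524 at rank 118, 4 bp from its TSS, and replicate ranks of 229, 43 and 117. It was thus stronger than every proteasome subunit gene. The next 3 were ntc (693.5), an F-box gene that acts through the regulator PI31, and whose peak lay nearer to IntS10, then maf-S (487.5), and cnc itself (359.3), the fly member of the Nrf family that activates proteasome genes. Replicate ranks were 1397, 979 and 1146 for ntc, 2918, 2498 and 1561 for maf-S and 2538, 5123 and 5100 for cnc.

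Both polyubiquitin genes had a peak close to their TSS, Ubi-p5E with a signal of 317.9 and Ubi-p63E with 290.0, as did RpS27A, a ubiquitin fusion gene, with 338.6. The remaining 4 were Usp14 (211.9) and Uch-L5 (183.6), which encode deubiquitinases of the cap, the segregase cofactor gene Ufd1 (196.3), and Uba1 (177.5), the ubiquitin-activating enzyme. The Ufd1 peak lay nearer to NaPi-III, and the RpS27A peak lay as near to Ip259 as to RpS27A. Uch-L5 ranked 13850 in replicate 1 and 5192 in replicate 3 and had no region in replicate 2. The Uba1 summit lay 558 bp downstream of the TSS. No optimal peak lay within 1000 bp of the other 12 genes, among them the core assembly factors Pomp and PSMG1, the regulators PI31 and REG, and the shuttle factors Rad23 and Ubqn.

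Other large complexes give a scale for these shares. Cytosolic ribosomal protein genes had a peak in 58 of 93 cases (62.4%, exact interval 51.7 to 72.2%). This interval lies above the 31.2% of all protein-coding genes, and it shares only 51.7 to 56.3% with that of the ubiquitous proteasome subunits. The V-ATPase genes stood at 9 of 33 (27.3%) and the CCT chaperonin genes at 3 of 8. The ubiquitous proteasome subunits, at 37.5%, lay between the V-ATPase and the ribosomal protein genes. This order depends on the paralogues, because the other families were taken by symbol with no copies removed. All 48 proteasome genes, paralogues included, stood at 25%, below the V-ATPase genes. None of these differences was tested.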

How the data were processed

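Only peak lists were analysed. Regions were called, per the deposited file lists, for each of the 3 replicates against 1 shared control and for the 3 together, and the optimal list of 9531 peaks followed from a reproducibility (IDR) step. Neither aligner, caller, IDR threshold nor the control's origin is given in the sources used here. Each deposited region has a signal value (the authors', scale not stated), a −log10 of the q-value, which was not used further, and a summit position. Each replicate and pooled list held 30000 regions, background included. Read depth is not in the lists, so intervals cover counting error only. Signals were compared within a list and replicates by rank. All 9531 optimal peaks were among the 9531 strongest pooled regions.

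Summits of the dm6 lists were assigned to every protein-coding gene (Ensembl release 115) with a TSS within 1000 bp. Sequence was release 6, shown with at most 30 exon bases in a run. Intervals are exact (Clopper-Pearson, 95%). The steps were checked on simulated summits and words. Python 3.11.15, numpy 2.4.6, scipy 1.17.1 and matplotlib 3.10.9 were used. With 1 group there was no test between groups. The members and lists were chosen with earlier results of these data known. Named were the genes with the 12 strongest and the 3 weakest peaks, those with a summit nearer to another gene, paralogues with a pooled region, other members with no peak, and the strongest 4 of the pathway list. The other pathway genes, Prosbeta2R2 and the proteolytic subunits as a class were singled out after their values were seen. Replicate numbers are those of the labels. One neighbouring gene is not reported here.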

Additional observations from a re-analysis of the deposited data

How the results depend on the processing

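The median replicate rank moved by less than 1 SD, and the counts under windows of 250, 500 and 2000 bp, the outermost TSS alone and without close summits stayed within 1.5 times those reported. Other rules moved the counts, each given here with the share of all protein-coding genes that had a peak under it. With each peak given only to its nearest gene, 4 proteasome genes (8.33%, beside 24.6%) had a peak, 1 core and 3 cap, and their median signal was 189.4. With the stronger 50% of the peaks there were 7 (14.6%, beside 20.9%), 3 core and 4 cap. With peaks among the 9531 strongest regions of all 3 replicates there were 7 (14.6%, beside 25.1%), 3 core and 4 cap, and when at least 50% of each region had to be shared there were 6 (12.5%, beside 15.6%), 3 core and 3 cap. Leaving out replicates 1, 2 and 3 in turn gave 9, 8 and 7 genes (18.8%, 16.7% and 14.6%, beside 26.8%, 26.5% and 26.6%). Each time 3 were core genes, and 6, 5 and 4 were cap genes. The pooled list had 8 core genes (57.1%) and 1 testis-type paralogue (6.25%), beside 43.4%. The strongest regions of replicate 3 had 3 core (21.4%) and 12 cap genes (66.7%), beside 35.6%. The paralogues, 0 in the optimal list, had 1 (6.25%) among the strongest regions of replicate 1, of replicate 2, of replicate 3, and of at least 2 replicates. The shares of all protein-coding genes there were 31.1%, 33.2%, 35.6% and 32.8%. The share of summits with the forkhead word was 16.7% within 50 bp and 50% within 100 bp.

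The order of core and cap was not stable. The cap share was above that of the core as reported (38.9% and 35.7%). It was below that of the core with a window of 250 bp (27.8% and 35.7%, beside 21.8% of all protein-coding genes). The same held in the pooled list (44.4% and 57.1%, beside 43.4%) and when 50% of each region had to be shared (16.7% and 21.4%, beside 15.6%). Core and cap lay above the share of all genes as reported and below it with each peak given to its nearest gene (7.14% and 16.7%, beside 24.6%) and with peaks of all 3 replicates (21.4% and 22.2%, beside 25.1%). The median signal lay below that of all genes as reported (377.5 and 395.1) and above it with a window of 2000 bp (543.4 and 412.0). The causes were not tested. No paired analysis was possible because there is 1 group of samples. The depth behind the peaks is unknown, so an absent region is not shown to be unbound.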

Other observations

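Most of the proteasome peaks lay in sequence of lower GC content than the median summit near a TSS. The median GC content within 50 bp of the strongest summit was 32.7% over the 12 genes, from 15.8% (Prosbeta2) to 52.5% (Rpn9), beside 41.6% over the optimal summits within 1000 bp of a protein-coding TSS. Rpt2 stood at 23.8%, Rpn11 at 28.7%, and Prosalpha6 and Prosbeta3 at 29.7% each. Rpn13 (41.6%), Rpn8 (43.6%) and Prosbeta5 (44.6%), like Rpn9, were not below the 41.6% of those summits. These values were looked at after the peaks were known and were not tested.

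By chromosome arm, 5 of 13 members on 2R, 4 of 14 on 3R, 2 of 8 on 2L, 1 of 7 on 3L and 0 of 6 on X had an optimal peak, beside 31.7%, 31.3%, 30%, 33.8% and 28.7% of all protein-coding genes on these arms. With so few members per arm no difference between arms can be read from these counts.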
